A study of Mus musculus with 12 samples.

Results

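The transcripts described here belong to 10 genes of antigen presentation by the major histocompatibility complex (MHC). They are the class II chains H2-Aa, H2-Ab1 and H2-Eb1, the class II loading factor H2-DMa, the invariant chain Cd74, the class II transactivator Ciita, the class I heavy chains H2-K1 and H2-D1, the class I light chain B2m and the peptide transporter subunit Tap1. On GRCm38 (GENCODE M21), 7 of them lie in the MHC on chromosome 17 between H2-K1 (33996017 to 34000347) and H2-D1 (35262730 to 35267499), with Ciita on chromosome 16 and B2m on chromosome 2. They were chosen by symbol from a count table of 12960 genes, and all 10 were among the 10822 genes that passed the filter on low counts. Bone marrow-derived macrophages (BMDMs) came from wild-type (WT) mice or from AMPKβ1-/- mice, which lack the β1 regulatory subunit of the AMP-activated protein kinase in the whole body. The marrow cells were differentiated with medium from L929 cells, a source of M-CSF, and then exposed for 6 h to either 0.1% DMSO as vehicle or PF-06409577 (PF) at 10 μM, an activator of AMPK complexes that hold β1. Each of the 4 groups has 3 RNA sequencing libraries, and the labels name no interferon treatment. The comparisons ask what PF does to these transcripts in WT BMDMs, whether it does so without AMPKβ1, and how BMDMs of the genotypes differ. The labels do not say whether the libraries of a group came from separate mice or cultures, nor the age or strain of the mice, so p-values measure only the spread between libraries, which may be technical.

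Class I molecules present peptides made in the cytosol. The proteasome cuts proteins into peptides, the transporter made of Tap1 and Tap2 carries these into the endoplasmic reticulum, and there they are loaded onto a heavy chain paired with B2m for display to CD8 T cells. Class II molecules present peptides from material the cell has taken up. Their α and β chains assemble with Cd74, which blocks the groove until cathepsins degrade it in endosomes, and H2-DM then exchanges the remaining fragment for a peptide that is shown to CD4 T cells. Ciita does not bind DNA itself but is recruited to the promoters of class II genes and Cd74 by RFX, CREB and NF-Y, and its own transcription in macrophages is known to depend strongly on interferon-gamma. Nlrc5 has the matching role at class I promoters, and both gene classes also respond to interferon regulatory factors (IRF).

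The promoters of the members are shown because the 10 genes are often treated as one coordinately controlled set. RefSeq windows on GRCm38.p6, the 250 bases before the annotated start, were used for 7 of the 10 members. H2-K1 and H2-DMa have 2 annotated starts each, and the first listed one was used unless stated. No window was used for H2-Ab1, Cd74 and Ciita. Each window was searched on both strands for the Y box CCAAT, bound by NF-Y, the CRE core TGACG, bound by CREB and ATF factors, the IRF core AANNGAAA and a kB-type site, read as GGG and CCC with 5 bases of any kind between them. Of 32851 promoter windows of the same length, 33.8% held the Y box, 17.8% the CRE core, 21.3% the IRF core and 12.2% the kB-type site. The windows of the class I genes B2m and H2-K1 and of the class II genes H2-Aa and H2-Eb1 follow, 5′ to 3′ toward the gene, with all 4 motifs in capitals. They lie at chr2:122147437-122147686 on the plus strand, chr17:34000348-34000597 on the minus strand, chr17:34287824-34288073 on the minus strand and chr17:34305617-34305866 on the plus strand.
B2m: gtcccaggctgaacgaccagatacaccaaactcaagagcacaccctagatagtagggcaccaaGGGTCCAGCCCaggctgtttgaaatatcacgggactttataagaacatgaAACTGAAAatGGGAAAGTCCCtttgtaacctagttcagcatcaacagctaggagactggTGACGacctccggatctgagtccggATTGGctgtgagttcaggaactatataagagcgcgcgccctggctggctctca
H2-K1: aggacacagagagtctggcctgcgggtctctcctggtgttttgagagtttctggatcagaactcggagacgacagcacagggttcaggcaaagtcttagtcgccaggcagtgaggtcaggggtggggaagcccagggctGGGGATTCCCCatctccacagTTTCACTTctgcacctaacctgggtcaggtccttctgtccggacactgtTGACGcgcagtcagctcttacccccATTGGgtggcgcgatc
H2-Aa: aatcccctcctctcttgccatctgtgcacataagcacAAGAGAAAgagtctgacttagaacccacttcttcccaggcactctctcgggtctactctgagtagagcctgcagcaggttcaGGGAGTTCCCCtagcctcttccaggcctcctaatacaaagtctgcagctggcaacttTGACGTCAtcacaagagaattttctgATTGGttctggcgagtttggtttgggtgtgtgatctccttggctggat
H2-Eb1: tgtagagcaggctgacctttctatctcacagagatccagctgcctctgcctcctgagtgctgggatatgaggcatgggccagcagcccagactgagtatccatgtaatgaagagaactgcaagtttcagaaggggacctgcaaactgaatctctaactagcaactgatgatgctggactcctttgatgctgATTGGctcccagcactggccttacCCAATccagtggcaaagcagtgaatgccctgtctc

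The Y box was present in 6 of the 7 first listed windows, all but that of H2-DMa, and the CRE core in 5, those of B2m, H2-K1, H2-D1, Tap1 and H2-Aa. Both stood in these same 5 windows, against 6.1% of all windows. In B2m, H2-K1 and H2-D1 the CRE core began 25 bases before the next Y box. In H2-Aa a pair of overlapping CRE cores, read as one palindrome in capitals, began 26 and 23 bases before it. H2-Eb1 had 2 Y boxes and no match to the other motifs, and the first H2-DMa window had no match to any of the 4. The second H2-DMa window held a Y box and an IRF core. Of the windows, only those of the heavy chain genes H2-K1 and H2-D1 were aligned with each other. Their best local alignment held 177 columns, of which 91.0% were identical. The 29 bases from their kB-type site to their IRF core, in capitals, follow, at chr17:34000430-34000458 on the minus strand for H2-K1 and at chr17:35262923-35262951 on the plus strand for H2-D1.
H2-K1 kB-type site to IRF core: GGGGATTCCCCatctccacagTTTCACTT
H2-D1 kB-type site to IRF core: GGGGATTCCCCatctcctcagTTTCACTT
Counted from the first base of the stretch, A18T is the difference between H2-K1 and H2-D1, and it lies between the motifs. These matches are letters in a window and were not measured for binding.

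The libraries held 8935609 to 14358180 counts, and the 10 genes took 1.06% to 1.34% of them. Prkab1, which encodes the deleted subunit, was at 43.4, 44.2 and 45.3 CPM, its counts scaled to the size of each library, in WT BMDMs with vehicle and at 8.39, 7.70 and 6.05 CPM in AMPKβ1-/- BMDMs with vehicle. On the log2 scale this was −2.58 (SE 0.12, edgeR adjusted p = 8.86e-09). The 10 macrophage markers were all present and summed to 26100 to 31000 CPM in every library. Of cell types that also carry class II, 6 of 7 B cell markers were not in the count table and Cd79b did not exceed 2.35 CPM. Of 11 dendritic cell markers, Xcr1 and Cd209a were not in the table, Flt3, Zbtb46 and Clec9a stayed at or below 0.54 CPM, and the summed level was 18.6 to 18.9 CPM in WT with vehicle, 14.5 to 18.2 with PF, 13.8 to 14.9 in AMPKβ1-/- with vehicle and 14.3 to 17.3 with PF. In bulk RNA, fewer cells of a type and less RNA per cell cannot be told apart.

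A further difference between libraries was the dependence of counts on GC content, the share of G and C in a gene's transcripts. The slope of log2 CPM, relative to each gene's mean, was 0.36 to 0.72 per 10 percentage points of GC content in WT with vehicle, −0.051 to 0.37 with PF, −0.36 to −0.10 in AMPKβ1-/- with vehicle and −0.51 to −0.33 with PF. Of the 10 genes, 9 have a GC content of 51.0% to 57.3%, above the median of 50.1% over all tested genes, and B2m has 41.2%. A fit that removes the trend in GC content and length from each library is therefore given beside the edgeR values, and called GC-corrected. Whether the trend arose in the cells or in the libraries was not tested.

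The genes differed widely in level. Per kilobase of transcript in WT BMDMs with vehicle, H2-D1 was highest at 3350 CPM per kb, followed by B2m at 2450, H2-K1 at 2170 and Cd74 at 501. The class II chains followed with H2-Ab1 at 158 and H2-Aa at 147, then Tap1 at 118, H2-Eb1 at 80.6, H2-DMa at 16.8 and Ciita at 2.28 CPM per kb. Libraries of neighbours in this order overlapped only for H2-Ab1 with H2-Aa and for H2-Aa with Tap1. The BMDMs thus carried abundant class I message and far less class II message, and Ciita rested on 93 to 181 counts per library. The plot of levels by library shows the 10 genes in the 4 groups.

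**Figure D1:**
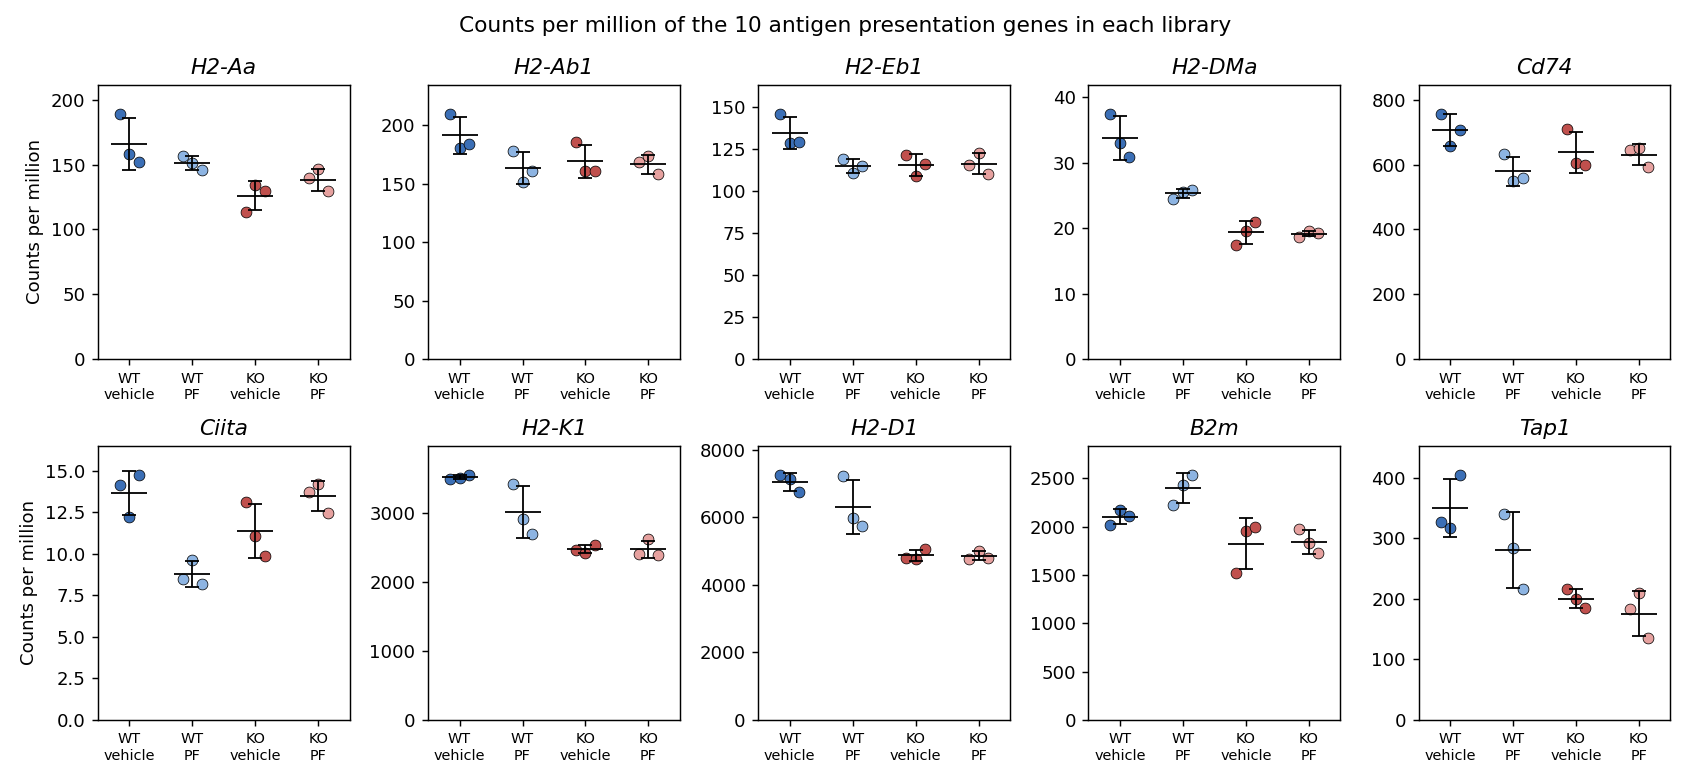
TMM-normalized CPM of each gene on a linear axis from 0. Each point is a library (3 per group), the wide bar is the group mean and the whiskers are 1 SD. Ciita is low in the 3 WT libraries with PF. The 6 AMPKβ1-/- libraries lie below the 3 WT libraries with vehicle for H2-Aa, H2-Eb1, H2-DMa, H2-K1, H2-D1, B2m and Tap1. The gap is small for H2-Aa, H2-Eb1 and B2m.

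The class II regulator and 2 class II accessory genes were lower with PF in WT BMDMs. Ciita, H2-DMa and Cd74 passed the test and were lower, 3 of the 10 genes against 8.95% of all tested genes and 14.5% of those within the GC range of the 9 GC-rich members, and 0 of 10 were higher against 6.99%. None of the 3 fell by more than 0.8 on the log2 scale, the fold threshold of the study's methods, against 0.37% of all tested genes. The median log2 fold change of the 10 genes was −0.23, against 0.005 over all tested genes.

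Ciita, the switch for class II transcription, was at 14.1, 12.2 and 14.7 CPM with vehicle and at 8.49, 9.64 and 8.15 CPM with PF. All 3 PF libraries were below all 3 vehicle libraries. The log2 fold change was −0.64 (SE 0.14, adjusted p = 0.011). The level thus fell by 36.0%, and the GC-corrected log2 value was −0.41 (adjusted p = 0.048). Without WT PF replicate 3 it was −0.58 with an adjusted p of 0.059, and with only the 6 WT libraries fitted the adjusted p was 0.053.

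H2-DMa encodes the α chain of the DM molecule that edits the class II peptide. It was at 37.42, 33.04 and 30.85 CPM with vehicle and at 24.5, 25.5 and 25.9 CPM with PF, again without overlap. The log2 fold change was −0.41 (SE 0.10, adjusted p = 0.018), and the GC-corrected value of −0.23 (adjusted p = 0.17) did not pass. Leaving out WT vehicle replicate 1, WT PF replicate 2 or WT PF replicate 3 took the adjusted p to 0.080, 0.062 and 0.066.

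Cd74, the chaperone of class II assembly, was at 755, 657 and 707 CPM with vehicle and at 631, 548 and 559 CPM with PF. The groups did not overlap, with the highest PF library close below the lowest vehicle library. The log2 fold change was −0.29 (SE 0.088, adjusted p = 0.041). This was the least firm of the calls, since the GC-corrected value was −0.12 (adjusted p = 0.23) and leaving out any of 9 of the 12 libraries ended it (adjusted p = 0.051 to 0.16).

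The class II chains themselves, which form the groove and hold the peptide, did not pass the test. H2-Ab1 was at 209.5, 181 and 184 CPM with vehicle and at 178, 151 and 161 CPM with PF (log2 fold change −0.23, adjusted p = 0.081). H2-Eb1 was at 146, 129 and 129 CPM with vehicle and at 119, 111 and 115 CPM with PF (log2 fold change −0.23, adjusted p = 0.059). For both β chains every PF library was below every vehicle library, although the gap was small. H2-Aa, the α chain, was at 189, 158 and 152 CPM and at 157, 151 and 146 CPM and overlapped (log2 fold change −0.13, adjusted p = 0.30).

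The class I genes did not pass the test in WT BMDMs either. H2-K1, a classical heavy chain, was at 3484, 3506 and 3544 CPM with vehicle and at 3417, 2912 and 2688 CPM with PF (log2 fold change −0.22, adjusted p = 0.075). H2-D1, the other classical heavy chain, was at 7253, 7130 and 6737 CPM and at 7231, 5988 and 5732 CPM (log2 fold change −0.16, adjusted p = 0.20). In both, WT PF replicate 1 stood near the vehicle libraries and the other PF libraries were lower. Without that library the log2 fold changes were −0.33 (adjusted p = 0.0073) for H2-K1 and −0.26 (adjusted p = 0.017) for H2-D1, and H2-Ab1 and H2-Eb1 also passed (adjusted p = 0.027 and 0.041). That library also had the highest GC slope of the 3 with PF, 0.37. With the GC correction, H2-K1 was at −0.059 and H2-D1 at 0.038 on the log2 scale.

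Tap1, a subunit of the peptide transporter, was at 327, 318 and 405 CPM with vehicle and at 341, 285 and 216 CPM with PF, with overlap (log2 fold change −0.32, SE 0.17, adjusted p = 0.19). B2m, the light chain of every class I molecule, ran the other way. It was at 2022, 2176 and 2116 CPM with vehicle and at 2228, 2435 and 2535 CPM with PF, all above vehicle (log2 fold change 0.19, adjusted p = 0.18). The direction of B2m reversed with the GC correction, to −0.39 (adjusted p = 0.010). In all, the WT libraries did not overlap for 6 genes that were lower and for B2m, against 18.1% lower and 14.2% higher over all tested genes.

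In AMPKβ1-/- BMDMs, none of the 10 genes passed the test for PF by edgeR's quasi-likelihood test, nor by DESeq2 or limma-voom. At an unadjusted p below 0.05 there were also 0 of 10, against 4.29% of tested genes higher and 0.693% lower. After adjustment, 0.0554% of tested genes were higher and 0 were lower. Ciita was at 13.1, 11.1 and 9.86 CPM with vehicle and at 13.7, 14.2 and 12.5 CPM with PF, so the groups overlapped (log2 fold change 0.24, 95% interval −0.049 to 0.54). H2-Aa had a log2 fold change of 0.14 (95% interval −0.063 to 0.33) and Tap1 of −0.19 (95% interval −0.56 to 0.18). The other 7 genes lay between −0.021 and 0.016. The libraries overlapped for all 10, against 14.5% of tested genes without overlap.

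The difference between the responses, tested as the interaction of genotype and PF, did not pass for any of the 10 genes, and 0.416% of all tested genes passed. Ciita came closest, with a response of −0.64 in WT and 0.24 in AMPKβ1-/- BMDMs. The difference was −0.89 on the log2 scale (SE 0.20, unadjusted p = 0.0004, adjusted p = 0.070). The adjusted p ranged from 0.016 to 0.20 over the alternatives, and was 0.016 by DESeq2, 0.046 when GC-corrected, 0.036 without KO vehicle replicate 1 and 0.042 without WT PF replicate 1. At an unadjusted p below 0.05, 4 genes had a lower response in WT (H2-Eb1, H2-DMa, Cd74 and Ciita), against 7.97% of all tested genes. By DESeq2, Ciita was also the 1 gene of the 10 that passed.

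Between the genotypes with vehicle, most class I members and some of the class II members were lower in AMPKβ1-/- than in WT BMDMs. H2-DMa, Tap1, H2-D1, H2-K1, H2-Aa and H2-Eb1 were lower, 6 of 10 against 30.0% of all tested genes, and 0 of 10 were higher against 29.7%. Among the 3526 tested genes within the GC range of the 9 GC-rich members, 52.9% were lower. When GC-corrected, 3 of the 10 genes were lower and 2 were higher, against 2163 lower and 1552 higher of all 10786 genes so corrected. H2-DMa and Tap1 were the 2 genes below −0.8 on the log2 scale, against 1.76%. The median of the 10 genes was −0.33, against −0.026 over all tested genes, and −0.15 when GC-corrected.

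H2-DMa was at 17.5, 19.6 and 21 CPM in AMPKβ1-/- BMDMs, every library far below the 30.9 to 37.4 CPM of WT. The log2 fold change was −0.80 (SE 0.11, adjusted p = 5.38e-05), so the level fell by 42.6%. The GC-corrected value was −0.42 (adjusted p = 0.0033), so this call held under the GC correction. It also passed in each alternative fit, with an adjusted p of at most 0.0033. H2-Aa was at 113, 135 and 130 CPM, below all WT libraries with vehicle (−0.40 on the log2 scale, SE 0.093, adjusted p = 0.0020). Its GC-corrected value was −0.17 (adjusted p = 0.048).

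H2-Eb1 was at 122, 109 and 116 CPM, just below the WT libraries (log2 fold change −0.22, adjusted p = 0.025). Its GC-corrected value was 0.036, and leaving out WT vehicle replicate 1, KO vehicle replicate 2 or KO vehicle replicate 3 ended the call (adjusted p = 0.12, 0.12 and 0.057). H2-Ab1 was at 186, 161 and 161 CPM, Cd74 at 711, 604 and 598 CPM and Ciita at 13.1, 11.1 and 9.86 CPM, and all 3 overlapped with WT. Their log2 fold changes of −0.18, −0.15 and −0.26 did not pass, except without KO vehicle replicate 1, the highest of its group for all 3 (adjusted p = 0.029, 0.035 and 0.040). When GC-corrected, H2-Ab1 and Cd74 were higher in AMPKβ1-/- BMDMs, at 0.27 (adjusted p = 0.0026) and 0.29 (adjusted p = 0.0013). The genotype difference of class II was thus uneven, with H2-DMa lower in each fit and the direction of Cd74 and of H2-Ab1 depending on the GC correction.

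The class I heavy chains were lower by similar amounts. H2-K1 was at 2456, 2416 and 2529 CPM in AMPKβ1-/- BMDMs, and its WT libraries were between 3484 and 3544 CPM. H2-D1 was at 4809, 4757 and 5061 CPM, and its WT libraries were between 6737 and 7253 CPM. The groups were far apart relative to their spread, with log2 fold changes of −0.51 (SE 0.084, adjusted p = 0.00020) for H2-K1 and −0.53 (SE 0.085, adjusted p = 0.00017) for H2-D1. When GC-corrected, these values were −0.089 (adjusted p = 0.22) and −0.14 (adjusted p = 0.064). The median of the 951 tested genes with 56% to 58% GC was −0.38, and that of the 1120 genes with 54% to 56% GC was −0.35. Of the 50-base stretches of these transcripts, 8.8% for H2-K1 and 14.3% for H2-D1 also occur in another gene, chiefly each other and H2-Q genes, so their counts may be split between relatives.

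Tap1 was at 217, 199 and 185 CPM in AMPKβ1-/- BMDMs, with no overlap with the 318 to 405 CPM of WT. The log2 fold change was −0.80 (SE 0.17, adjusted p = 0.0014) and the GC-corrected value was −0.42 (adjusted p = 0.052). B2m was at 1518, 1956 and 1993 CPM, below the lowest WT library of 2022 CPM, with a log2 fold change of −0.21 (adjusted p = 0.078). KO vehicle replicate 1 was the low one of the group. Genes as AT-rich as B2m moved strongly upward in this comparison, with a median of 1.14 over the 605 tested genes with 40% to 42% GC, and the GC-corrected value of B2m was −1.11 (adjusted p = 5.68e-07). With B2m, 7 of the 10 genes did not overlap and were lower, against 32.0% of all tested genes.

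With library size alone in place of TMM normalization the median of all tested genes moved to 0.183 in this comparison. H2-Ab1, Cd74 and B2m were then at 0.032, 0.063 and 0.0015, below that median but no longer negative. H2-Eb1 and H2-Aa lost their calls, at −0.0085 and −0.18, and the other 4 calls held.

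**Figure D2:**
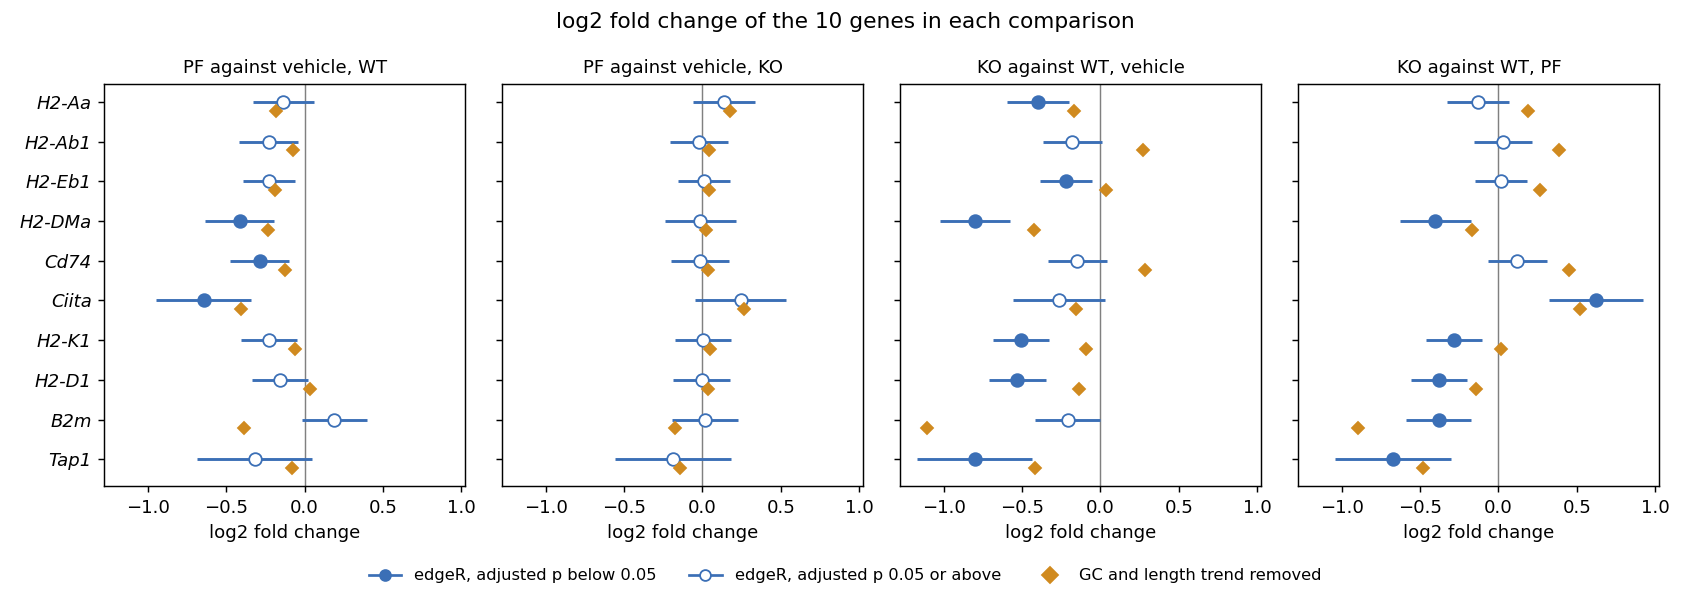
log2 fold change of each gene in 4 comparisons. Circles are edgeR values with 95% intervals, filled where the adjusted p was below 0.05, and diamonds are the values with the trend in GC content and length removed. Ciita lies furthest from 0 for PF in WT, no gene passes the test for PF in AMPKβ1-/- BMDMs, and B2m shows the widest gap between circle and diamond, from −0.21 to −1.11 in AMPKβ1-/- against WT with vehicle.

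With PF in both genotypes, 5 of 10 genes were lower in AMPKβ1-/- than in WT BMDMs, against 22.9% of all tested genes and 36.9% of those within the GC range of the 9 GC-rich members. Ciita was higher, 1 of 10 against 24.1%. The libraries of these 6 genes did not overlap, as was so for 30.0% of tested genes that were lower and 29.9% that were higher, and none was below −0.8 on the log2 scale, against 2.06%. This comparison and the others share libraries, so their values are given side by side and are not independent. Ciita was at 13.7, 14.2 and 12.5 CPM in AMPKβ1-/- BMDMs, all above the 8.15 to 9.64 CPM of WT with PF. The log2 fold change was 0.62 (SE 0.14, adjusted p = 0.0023), or 0.52 (adjusted p = 0.0022) when GC-corrected. Over the alternatives the adjusted p stayed between 0.00068 and 0.011, which made it the firmest of the Ciita results.

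The lower genes were mostly those of class I. H2-D1 was at 4774, 5008 and 4794 CPM (log2 fold change −0.38, adjusted p = 0.0023), H2-K1 at 2403, 2614 and 2388 CPM (log2 fold change −0.28, adjusted p = 0.012) and Tap1 at 183, 209 and 135 CPM (log2 fold change −0.67, adjusted p = 0.0061). All were below the WT libraries with PF. H2-K1 lost its call without WT PF replicate 1, KO PF replicate 1 or KO PF replicate 3 (adjusted p = 0.068, 0.053 and 0.053), and its GC-corrected value was 0.016. B2m was at 1976, 1828 and 1726 CPM and passed here, with a log2 fold change of −0.38 (adjusted p = 0.0053). H2-DMa was the remaining one, at 18.73, 19.55 and 19.25 CPM against 24.5 to 25.9 CPM in WT (log2 fold change −0.40, adjusted p = 0.0061). The GC correction also ended the calls of H2-DMa, at −0.17 (adjusted p = 0.21), and of H2-D1, at −0.14 (adjusted p = 0.053).

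H2-Aa, H2-Ab1, H2-Eb1 and Cd74 overlapped between the genotypes with PF. Their AMPKβ1-/- libraries lay at 129 to 146, 158 to 173, 110 to 123 and 593 to 651 CPM. The log2 fold changes were −0.13 for H2-Aa, 0.029 for H2-Ab1, 0.018 for H2-Eb1 and 0.12 for Cd74. With the GC correction all 4 were higher in AMPKβ1-/- BMDMs, at 0.19, 0.39, 0.26 and 0.45 (adjusted p at most 0.026). The GC correction thus left 5 of the 10 genes higher, Ciita, Cd74 and the 3 class II chains, and 2 lower, B2m at −0.90 and Tap1 at −0.48. Over all 10786 genes with that correction, 1793 were higher and 2292 lower. With library size alone the median of all tested genes was 0.146, and H2-Aa was at 0.020. Then 3 of the 10 genes were called higher and 2 lower, in place of 1 and 5. Over all 10822 tested genes, 3444 were higher and 1359 lower.

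**Figure D3:**
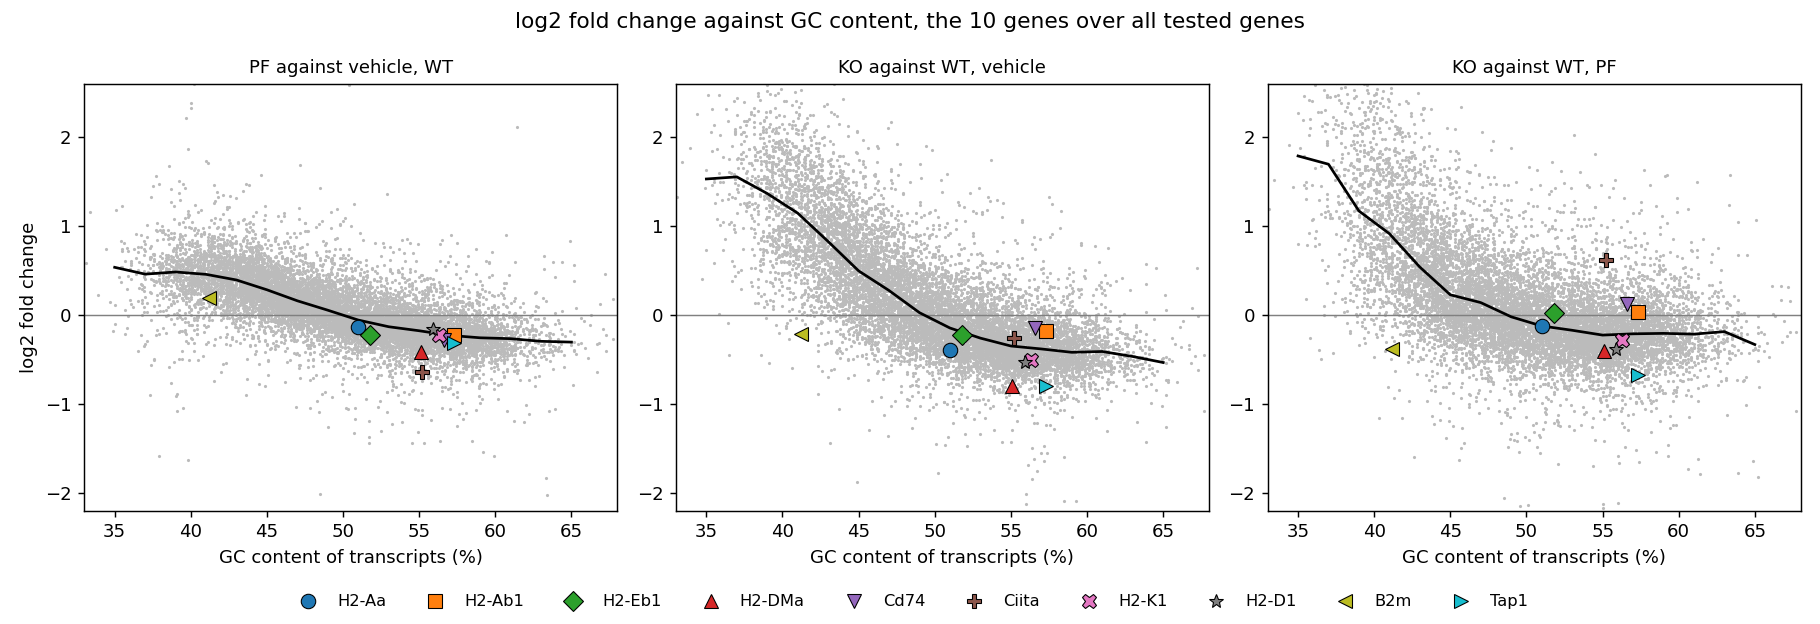
log2 fold change against the GC content of transcripts in percent for 3 comparisons. Grey points are tested genes, black lines are medians in bins of 2 percentage points with at least 20 genes, and coloured symbols are the 10 genes; 9, 31 and 70 of the 10786 genes lie outside the axes. In WT with PF against vehicle, Ciita, B2m and H2-DMa lie furthest below the black line, with B2m at 0.19 where the line is at 0.46. In both genotype comparisons B2m, H2-DMa, Tap1, H2-D1, H2-K1 and H2-Aa lie below the line, H2-Aa only just with PF.

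Genes that work with the members moved in both directions. In WT BMDMs with PF, 2 of 17 other tested class II genes were higher and 0 lower. Over all tested genes the shares were 6.99% higher and 8.95% lower, also for the lists that follow in this comparison. The 2 class II genes were Ctss and Ctsl, cathepsins that cut Cd74, with log2 fold changes of 0.43 (adjusted p = 0.018) and 0.36 (adjusted p = 0.017). Of 13 other tested heavy chain genes, H2-Q6 was lower at −0.35 (adjusted p = 0.025). Of 16 other genes of peptide supply and loading, the trimming peptidase Erap1 and the loading factor Pdia3 were higher, at 0.66 (adjusted p = 0.032) and 0.32 (adjusted p = 0.039). Of 12 interferon-gamma genes, Irf8 was lower at −0.26 (adjusted p = 0.027). The GC-corrected values of all 6 lay between −0.18 and 0.27 with adjusted p of at least 0.16. Of the 10 macrophage markers, 4 were also lower, and the 3 of smallest p were the M-CSF receptor Csf1r (−0.58, adjusted p = 0.0021), Cd14 and Itgam (−0.43 and −0.39). When GC-corrected, these 3 markers still passed, at −0.38, −0.37 and −0.42 (adjusted p at most 0.00035). Their part in the changes of Ciita, H2-DMa and Cd74 was not tested.

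Between the genotypes with vehicle, 8 of the 17 other class II genes were lower and 5 higher, against 30.0% and 29.7% of all tested genes. H2-DMb1, the partner of H2-DMa, was at 59.0, 47.6 and 41.7 CPM in WT and at 27.2, 26.6 and 29.2 CPM in AMPKβ1-/- BMDMs. The chains of the DM molecule thus fell together, H2-DMb1 with a log2 fold change of −0.84 (adjusted p = 7.2e-05), and −0.49 (adjusted p = 0.00045) when GC-corrected. The lysosomal cathepsins Ctsd and Ctsz were lower at −0.66 and −0.56, and Ctsb, the gene of the list with the highest mean CPM over the 12 libraries, at −0.38. When GC-corrected, Ctsd was at −0.27 (adjusted p = 0.00038), and Ctsz at −0.11 did not pass (adjusted p = 0.099). Creb1, a CREB factor, and Marchf1, a ubiquitin ligase that removes class II from the surface, were higher at 1.23 and 1.37, but at −0.19 and 0.26 when GC-corrected.

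Of the 13 other tested heavy chain genes, 6 were lower and 0 higher, against 30.0% and 29.7% of all tested genes. Of tested genes within the GC range of the 9 GC-rich members, 52.9% were lower. The other 7 heavy chain genes did not pass, 5 of them with a log2 fold change above 0, and the median of the list was −0.28. H2-Q6 was at 38.7, 37.1 and 36.3 CPM in WT and at 18.2, 18.7 and 17.2 CPM in AMPKβ1-/- BMDMs, without overlap. Its log2 fold change was −1.05 (adjusted p = 9.59e-06), that of H2-Q7 was −0.87 and that of H2-T23, the ligand of the NKG2 receptors, was −0.79. These 3 stayed past the threshold when GC-corrected, at −0.68, −0.42 and −0.44, unlike H2-K1 and H2-D1. H2-Q6 and H2-Q7 are near copies, so reads may be split between them.

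Of the 16 genes of peptide supply and loading, 9 were lower and 5 higher, against 30.0% and 29.7% of all tested genes. The immunoproteasome subunits Psmb9 and Psmb10 and the proteasome activator Psme1 were lower at −0.67, −0.67 and −0.63, and at −0.27, −0.24 and −0.23 when GC-corrected (adjusted p at most 0.023). Calr, a chaperone and the gene of the list with the highest mean CPM over the 12 libraries, was lower at −0.25. The peptidases Lnpep and Tpp2 and the loading factor Pdia3 were higher at 1.94, 1.14 and 0.51. Their GC-corrected values were 0.53, 0.07 and 0.32, and Tpp2 did not pass with that correction (adjusted p = 0.62). The 5 higher genes had 40.3% to 46.9% GC and the 9 lower genes were all richer in GC, up to 57.1%. Of the 12 interferon-gamma genes, Irf8, Irf9 and Irf1 were lower at −0.59, −0.47 and −0.45, and Jak2, Ptpn2 and Jak1 were higher at 1.24, 0.79 and 0.30. The GC-corrected values were −0.25, −0.26 and −0.17 for Irf8, Irf9 and Irf1, and 0.52, −0.29 and 0.02 for Jak2, Ptpn2 and Jak1. With that correction Irf1, Ptpn2 and Jak1 did not pass (adjusted p = 0.32, 0.16 and 0.87). Of the 10 macrophage markers, 5 were lower and 2 higher, against 30.0% and 29.7% of all tested genes. Cd68, Spi1 and Csf1r were lower at −0.72, −0.44 and −0.28, and Adgre1 and Itgam were higher at 0.25 and 0.23. Among these named markers only Cd68 passed when GC-corrected, at −0.40 (adjusted p = 2.8e-05). Itgax, which marks dendritic cells and some macrophages, was lower at −0.95 (adjusted p = 0.00062), and Cd4 at −1.15 (adjusted p = 1.9e-05). Their part in the lower class II transcripts was not tested.

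With PF in both genotypes the counts were 4 lower and 3 higher of 17 class II genes and 6 and 1 of 13 heavy chains. They were 9 and 3 of 16 supply and loading genes and 5 and 5 of 12 interferon-gamma genes. Over all tested genes, 22.9% were lower and 24.1% higher. Within the GC range of the 9 GC-rich members, 36.9% of tested genes were lower. H2-T23 was lower at −0.72, H2-Q7 at −0.75 and H2-T22 at −0.78, and the immunoproteasome subunits Psmb8 and Psmb9 were lower at −0.64 and −0.62. H2-M2 was the 1 heavy chain that was higher, with a highest library of 2.0 CPM. Of the interferon-gamma genes, Jak2, Ptpn2 and Socs3, an inhibitor of cytokine signalling, were higher at 0.86, 0.73 and 0.55 (adjusted p at most 0.0075). Irf8, Irf9 and Irf1 were lower at −0.36, −0.42 and −0.60 (adjusted p at most 0.0043). When GC-corrected, Ptpn2 was at −0.24 and did not pass (adjusted p = 0.20), while the others named here still passed. For PF in AMPKβ1-/- BMDMs, 0 genes of these lists passed the test.

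**Figure D4:**
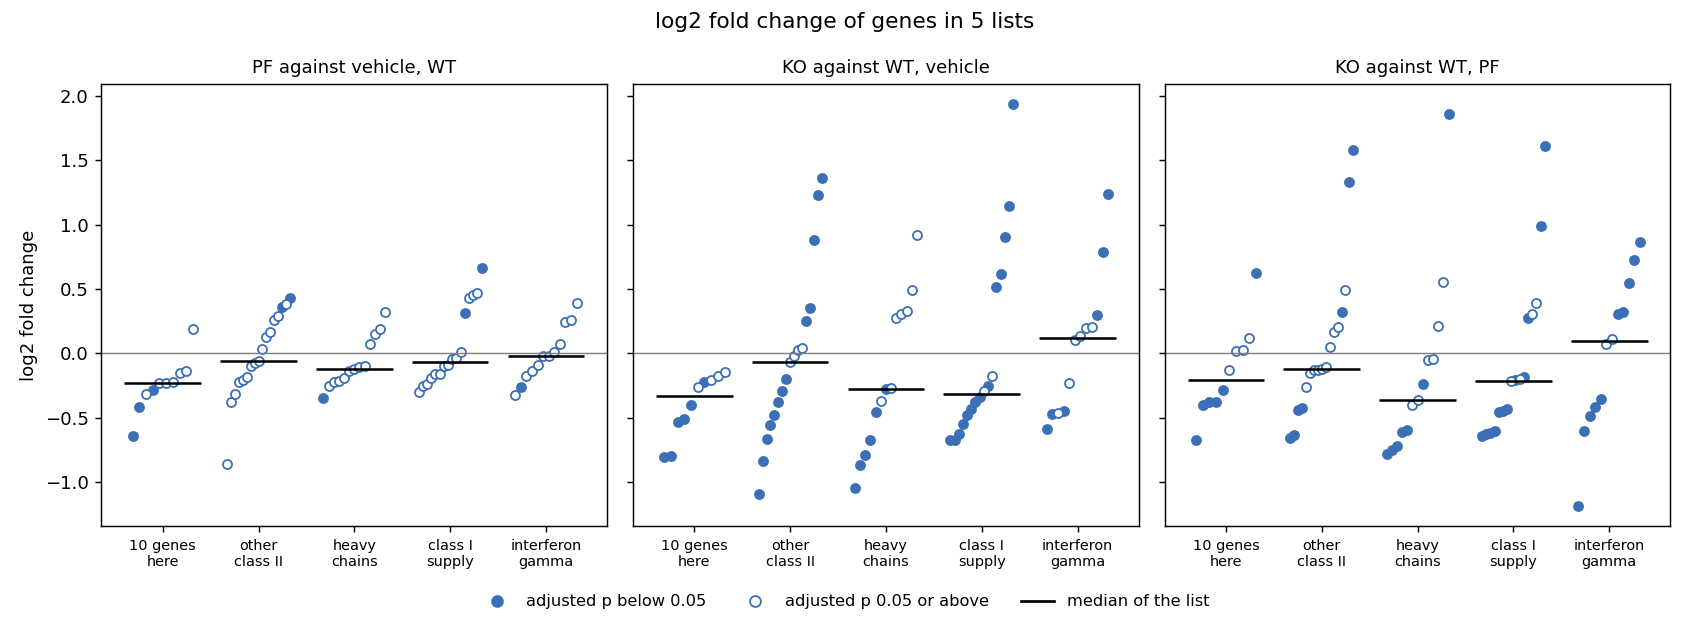
log2 fold change of the 10 genes and of 4 lists of other genes in 3 comparisons (other class II genes, other heavy chains, class I peptide supply and loading, interferon-gamma signalling). Each point is a gene, filled where the adjusted p was below 0.05, and black bars are list medians. The heavy chains have a median of −0.28 between the genotypes with vehicle, and the supply and loading list runs from −0.67 to 1.94 there.

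Over the 12 libraries the members did not vary as one set. As a description, the Pearson correlation of log2 CPM was 0.98 between H2-K1 and H2-D1, 0.93 between H2-K1 and Tap1, and 0.90 between H2-K1 and H2-DMa, a class II gene. Cd74 went with H2-Ab1 (0.94) and H2-Eb1 (0.84) but less with H2-Aa (0.26). Ciita went with Cd74 (0.74), H2-Ab1 (0.53) and H2-Eb1 (0.51), and hardly with H2-DMa (0.02) or H2-Aa (0.035). The genes closest to Ciita were Bcl3 (0.94), Fgd2 (0.93) and Oplah (0.92), and those closest to H2-K1 were Scarb1, Nagpa and Gpatch3 (0.99 each). After H2-Ab1, those closest to Cd74 were Dok3 and Ppp1r12c (0.93 and 0.92). The libraries share genotype, treatment and GC slope, and all 8 of these genes that are not members have 56.2% to 62.6% GC.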

How the data were processed

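Per the methods and the submitters' processing notes, the authors trimmed reads with Trim Galore, quantified transcripts with Salmon and tested with DESeq2. The deposited table holds whole numbers, read here as estimated counts rounded by gene and not normalized. Genome build, Salmon options and the filter behind the 12960 genes are not given in the sources used here. Groups of the count columns came from the labels.

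Counts were fitted in R 4.3.3 with edgeR 4.0.16 (quasi-likelihood, robust, TMM, filterByExpr), with 4 group means over 12 libraries and Benjamini-Hochberg adjustment over 10822 genes. Genes with an adjusted p below 0.05 were called. SE are approximate and derived from the F statistic. CPM are TMM-normalized. GC content and length came from GENCODE M21 (GRCm38), with splines of 5 degrees of freedom as offset, and 63 genes had none. limma 3.58.1 and DESeq2 1.42.0 were alternatives. A count of 0 allows up to 3 counts, for counting error only. All members and Prkab1 were named, with the 3 genes most correlated with Ciita, Cd74 and H2-K1. Of other lists, the gene of highest mean CPM over all libraries and at most the 3 called genes of smallest p in each direction were named. The script was tested on simulated data. Members and lists were chosen with earlier results of these data known.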

Additional observations from a re-analysis of the deposited data

How the results depend on the processing

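Counts of called genes among the 10 moved as follows. PF in WT gave 3, 0 when only the 6 WT libraries were fitted, 0 beyond a log2 fold change of 0.8, and 0 to 7 with one library left out (0 without WT PF replicate 3, 1 without WT PF replicate 2 or WT vehicle replicate 1, 7 without WT PF replicate 1). AMPKβ1-/- against WT gave 6 with vehicle (2 beyond 0.8, 5 to 9 with one library left out, 9 without KO vehicle replicate 1) and 6 with PF (0 beyond 0.8, 5 to 6 with one left out). The interaction gave 0, 1 by DESeq2, 1 when GC-corrected and 0 to 1 with one left out. PF in AMPKβ1-/- gave 0 in each.

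Directions reversed with the GC correction for H2-D1 (0.038) and B2m (−0.39) with PF in WT, for H2-Ab1 (0.27), H2-Eb1 (0.036) and Cd74 (0.29) between genotypes with vehicle, and for H2-Aa (0.19) and H2-K1 (0.016) with PF. With library size alone they reversed for H2-Ab1 (0.032), Cd74 (0.063) and B2m (0.0015) with vehicle and H2-Aa (0.020) with PF. With PF, H2-Ab1 ranged from −0.024 to 0.095 with one library left out, below 0 without KO PF replicate 2 (−0.00012) or WT PF replicate 2, and H2-Eb1 from −0.024 to 0.055, below 0 without the same libraries (−0.024 and −0.0096). The cause was not tested.

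A replicate block gave 4 called genes for PF in WT, with H2-Ab1 added (adjusted p = 0.047), 0 for PF in AMPKβ1-/- and 6 for each genotype comparison. Same-numbered libraries correlated between −0.17 and 0.32, so the numbers were not read as pairing.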
